A study of Rattus norvegicus with 12 samples.

Results

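Complex I of the respiratory chain was examined here through its nuclear genes in rat oligodendrocyte precursor cells (OPCs), the cells that mature into myelinating oligodendrocytes. Members were taken by symbol, as the genes named Ndufa, Ndufb, Ndufc, Ndufs, Ndufv, Ndufab or Ndufaf followed by a number. The rule found 43 genes among 30562 genes in the count table, of which 36 encode subunits and 7 encode Ndufaf assembly factors. The mild-hypo-OPC group held 6 libraries of OPCs kept at an FiO2, the oxygen fraction of the gas, of 5%, and the standard OPC group held 6 libraries of OPCs kept in room air. Both groups were wild type, and by the study's methods the cells were primary cultures from the cerebral cortex of Sprague-Dawley rats at postnatal day 1 or 2. The labels give an exposure of 6 hours and the study's methods give 6 days, so the duration is uncertain. The study's legend counts 3 biological replicates per group where 6 libraries are labelled for each, and nothing says that the 6 came from separate cultures, so p-values measure only the spread between these libraries.

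Complex I takes electrons from NADH, passes them along iron-sulfur clusters to ubiquinone and pumps protons across the inner mitochondrial membrane. Its matrix arm carries the redox centres and its membrane arm the proton channels, whose central subunits are encoded by mitochondrial DNA. Core subunits are conserved from bacteria and hold the catalytic machinery, accessory subunits surround and stabilise them, and assembly factors help to build the complex without remaining in it. OPCs and maturing oligodendrocytes have high energy demands, and oxygen is the final electron acceptor of the chain that complex I feeds.

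Transcripts of complex I subunits were lower in mild-hypo-OPCs than in standard OPCs. Of 35 subunit genes tested, 30 fell and 0 rose (edgeR's quasi-likelihood test, Benjamini-Hochberg adjusted p under 0.05 over 8938 genes), beside 17% of all genes tested that were lower and 7% that were higher. At an unadjusted p under 0.05, 34 subunits were lower and 0 higher in edgeR, beside 3243 of all 8938 genes in either direction. At an adjusted p under 0.05, limma-voom and DESeq2 likewise called 30 subunits lower and 0 higher. Of all genes, limma-voom called 1428 lower and 569 higher, and DESeq2 called 1520 lower and 795 higher. The median log2 fold change (mild-hypo-OPC relative to standard OPC) of the subunits was -0.72, with a range from -1.34 for Ndufa2 to 0.09 for Ndufs1, beside a median of -0.003 over all genes. It was 0.015 once the log2 total count entered the model as a covariate. Among the 5 Ndufaf assembly factors tested, 3 fell, 0 rose, and the median was -0.64. Of these 5, Ndufaf2 passed the filter on low values only through standard OPC replicate 3, and without that library 4 were tested, 2 fell and the median was -0.43. The 6 mild-hypo-OPC libraries lay below all 6 standard OPC libraries in 10 of the 35 tested subunits and in 0 of the 5 tested assembly factors, beside 5.4% of all genes. No tested member lay wholly above, beside 2.94% of all genes. This comparison used levels scaled between libraries by TMM factors. RNA came from whole cultures, in which fewer cells of a type and less RNA per cell cannot be told apart.

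**Figure D1:**
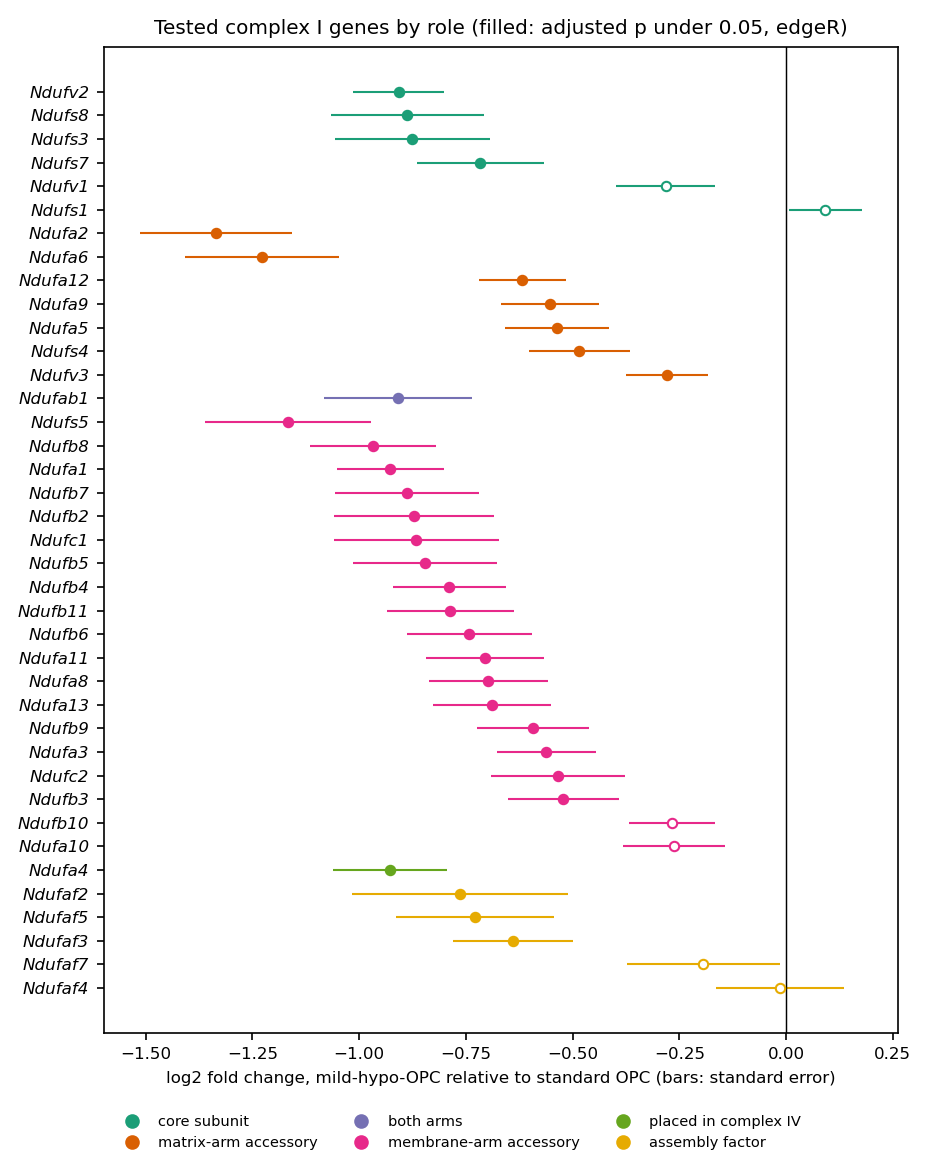
Log2 fold change of 39 tested complex I genes (x axis, mild-hypo-OPC relative to standard OPC, bars for the standard error) by gene (y axis), coloured by role. Filled points have an adjusted p under 0.05 in edgeR. Of the 39 genes, 33 are filled and all of these lie left of 0, while Ndufs1 at 0.09 is the gene to the right.

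Depth differed together with the condition. Totals per library were 4111669 to 9022324 counts for mild-hypo-OPCs, against 1356079 to 2797513 for standard OPCs, so depth and condition cannot be told apart between the groups. The ribosomal RNA genes Rn18s, Rn28s and Rn45s took 12% to 17.3% of counts in the mild-hypo-OPC libraries, against 16.8% to 26.3% in the standard ones. The summed level of the tested subunits was 1752 to 2420 CPM (read counts relative to library size, scaled by TMM factors here and below) in mild-hypo-OPCs, against 2462 to 4155 CPM in standard OPCs. Within the standard group the sum was 2462 and 2507 CPM in replicates 1 and 2, which had the highest totals, and 3260 to 4155 CPM in replicates 3 to 6. The TMM factors themselves split by group, at 1.08 to 1.23 under mild hypoxia and 0.81 to 0.95 for room air. Without these factors the groups overlapped. The tested subunits took 0.186% to 0.278% of all counts under mild hypoxia, beside 0.207% to 0.375% for room air. Statements that the groups lay apart in CPM are therefore made on scaled values only. With the log2 total as a covariate, 0 subunits were called lower by edgeR, 1 had an unadjusted p under 0.05, and 43 of all genes were called lower. When every library was thinned to the smallest total, 23 subunits were called lower, 0 were called higher and the median was -0.70, beside 6.10% of all genes lower and 1.81% higher. Without scaling factors, on library size only, the median over all genes was 0.43, 15 subunits were called lower and 1 higher, beside 4.53% and 61.7% of all genes, and the subunit median lay 0.71 below that of all genes. The part of depth in the result was not tested beyond these values.

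**Figure D2:**
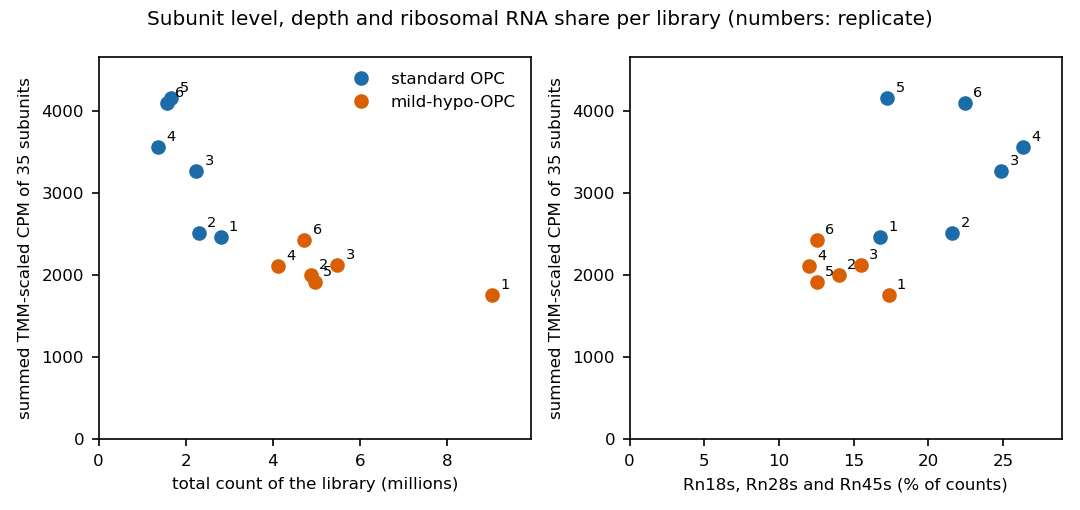
Summed TMM-scaled CPM of the 35 tested subunits (y axis) in each library against its total count (left) and against the share of ribosomal RNA counts in percent (right). Each point is 1 library with its replicate number. The mild-hypo-OPC libraries (1752 to 2420 CPM) lie below the standard OPC libraries (2462 to 4155 CPM) and to their right in total count. As a share of all counts, without TMM factors, the subunits of the groups overlap.

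Of 6 nuclear core subunits described here, 4 fell and 2 did not pass the test. Ndufv2 (ENSRNOG00000042503), an iron-sulfur subunit at the entry of electrons from NADH, had 65.8 CPM in the lowest, 75.9 as the median and 86.7 in the highest mild-hypo-OPC library. In standard OPCs it had 110, 142 and 175 CPM. The groups did not overlap, and the log2 fold change was -0.91 (SE 0.11, adjusted p = 8.54e-05, edgeR). Ndufs1 (ENSRNOG00000011849), the largest core subunit and a neighbour of Ndufv2 in the same part of the matrix arm, had 53.8, 55.7 and 62.1 CPM in mild-hypo-OPCs. In standard OPCs it had 46.0, 54.5 and 60.2 CPM. These ranges overlapped in part, and the log2 fold change was 0.09 (SE 0.09, adjusted p = 0.469, edgeR; 95% interval -0.09 to 0.27). On library size only it was called higher (0.53, adjusted p = 0.000156, edgeR), as were 61.7% of all genes. Reads of Ndufv2 per read of Ndufs1, a ratio within a library that needs no scaling factor, were 1.17 to 1.42 in mild-hypo-OPCs, against 1.83 to 3.81 in standard OPCs. The ratio was chosen after its genes' values were seen and is given with no test.

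Ndufv1 (ENSRNOG00000018117), which binds NADH and its flavin cofactor, had 54.3, 62.1 and 68.0 CPM in mild-hypo-OPCs and 53.9, 76.6 and 98.0 CPM in standard OPCs. Its lowest standard OPC library lay below every mild-hypo-OPC library, and the log2 fold change of -0.28 did not pass the test (SE 0.12, adjusted p = 0.0840, edgeR; 95% interval -0.52 to -0.04). Without standard OPC replicate 1 it passed, with -0.38 (adjusted p = 0.00904, edgeR).

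Core subunits Ndufs3, Ndufs7 and Ndufs8 of the ubiquinone end fell. Ndufs3 (ENSRNOG00000009155), of the part of the matrix arm next to the membrane, had 31.6, 36.9 and 49.4 CPM in mild-hypo-OPCs and 39.4, 71.4 and 110 CPM in standard OPCs, with -0.88 as its log2 fold change (SE 0.18, adjusted p = 0.00181, edgeR). Ndufs7 (ENSRNOG00000024568), which holds the iron-sulfur cluster next to ubiquinone, had 20.8, 25.4 and 35.6 CPM against 30.6, 43.1 and 57.1 CPM, a log2 fold change of -0.72 (SE 0.15, adjusted p = 0.00181, edgeR). Ndufs8 (ENSRNOG00000017446), with further iron-sulfur clusters of the path, had 28.3, 36.2 and 40.4 CPM against 37.9, 60.3 and 94.7 CPM, a log2 fold change of -0.89 (SE 0.18, adjusted p = 0.00155, edgeR). In each of these 3 genes the lowest standard OPC library reached into the mild-hypo-OPC range and the medians stood apart.

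**Figure D3:**
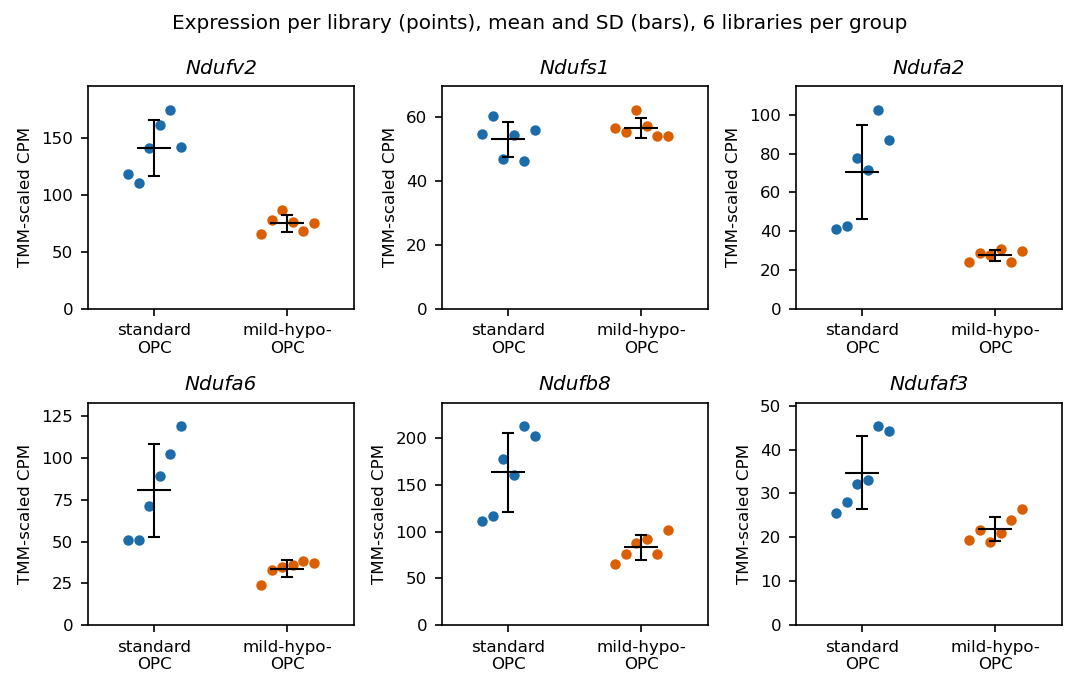
TMM-scaled CPM (y axis) of 6 complex I genes in each library (points), with the group mean and SD as bars, for 6 standard OPC and 6 mild-hypo-OPC libraries. The groups do not overlap in Ndufv2, Ndufa2, Ndufa6 and Ndufb8 and overlap in Ndufs1 (53.8 to 62.1 against 46.0 to 60.2 CPM) and Ndufaf3 (18.9 to 26.4 against 25.6 to 45.3 CPM).

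All 7 matrix-arm accessory subunits tested fell, with a median log2 fold change of -0.55. Ndufa2 (ENSRNOG00000017571), a small subunit with a thioredoxin-like fold, had 23.8, 28.2 and 30.5 CPM in mild-hypo-OPCs and 41.3, 74.8 and 103 CPM in standard OPCs. Its groups did not overlap, and it was 2.52-fold lower, a log2 fold change of -1.34 (SE 0.18, adjusted p = 0.000143, edgeR). Ndufa6 (ENSRNOG00000008569), which binds the acyl carrier protein, had 23.9, 35.2 and 38.2 CPM against 50.7, 80.2 and 119 CPM. Here too the groups did not overlap, with a 2.34-fold lower level and a log2 fold change of -1.23 (SE 0.18, adjusted p = 0.000184, edgeR). The others ranged from -0.62 for Ndufa12 to -0.28 for Ndufv3, with -0.55 for Ndufa9, -0.54 for Ndufa5 and -0.48 for Ndufs4, a gene mutated in Leigh syndrome. Ndufa9 and Ndufa12 also lay apart in all libraries. The call of Ndufv3 (adjusted p = 0.0407, edgeR) was lost in 10 of 12 fits that each left out 1 library, those lacking any mild-hypo-OPC library or replicate 3, 4, 5 or 6 of standard OPCs, with an adjusted p of up to 0.138.

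Of 19 membrane-arm accessory subunits, 17 fell and the median log2 fold change was -0.74. Ndufs5 (ENSRNOG00000026646), on the intermembrane space side, had 50.1, 60.2 and 85.0 CPM in mild-hypo-OPCs and 78.0, 148 and 215 CPM in standard OPCs. Only mild-hypo-OPC replicate 6 lay within the standard OPC range, and the log2 fold change was -1.17 (SE 0.19, adjusted p = 0.000332, edgeR). Ndufb8 (ENSRNOG00000014078), of the distal membrane arm, had 65.2, 81.8 and 102 CPM against 112, 169 and 213 CPM, without overlap and with a log2 fold change of -0.97 (SE 0.15, adjusted p = 0.000216, edgeR). Ndufa1 (ENSRNOG00000071176), an X-linked subunit needed early in membrane-arm assembly, had 36.0, 37.0 and 51.4 CPM against 59.6, 76.8 and 95.7 CPM. It too had no overlap, with a log2 fold change of -0.93 (SE 0.12, adjusted p = 0.000143, edgeR).

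Of the remaining membrane-arm subunits, Ndufa11 and Ndufb7 also lay apart in all libraries, with log2 fold changes of -0.70 and -0.89. The subunits Ndufb2, Ndufb4, Ndufb5, Ndufb6, Ndufb11 and Ndufc1 ranged from -0.87 to -0.74, and Ndufa3, Ndufa8, Ndufa13, Ndufb3, Ndufb9 and Ndufc2 from -0.70 to -0.52. The call of Ndufc2 (-0.53, adjusted p = 0.0181, edgeR) was lost when replicate 1 or 5 of mild-hypo-OPCs, or 4, 5 or 6 of standard OPCs, was left out, with an adjusted p of up to 0.0568. The 2 that did not pass were Ndufb10 (-0.27, adjusted p = 0.0587, edgeR; 95% interval -0.48 to -0.06) and Ndufa10 (-0.26, adjusted p = 0.12, edgeR; 95% interval -0.51 to -0.01). Ndufb10 passed without mild-hypo-OPC replicate 6 (adjusted p = 0.0188, edgeR), standard OPC replicate 2 (adjusted p = 0.0245, edgeR) or standard OPC replicate 3 (adjusted p = 0.0480, edgeR), and Ndufa10 without standard OPC replicate 1 (adjusted p = 0.0360, edgeR).

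A pair of genes belong to the list by name but not to a single arm of complex I. Ndufab1 (ENSRNOG00000018129), the mitochondrial acyl carrier protein found in both arms and used in fatty acid synthesis, had 41.5, 52.6 and 66.0 CPM in mild-hypo-OPCs and 53.3, 110 and 140.5 CPM in standard OPCs. The groups overlapped at the low end of standard OPCs, with a log2 fold change of -0.91 (SE 0.17, adjusted p = 0.000945, edgeR). Ndufa4 (ENSRNOG00000005512), now placed in complex IV, had 90.0, 102 and 120 CPM against 121, 210.5 and 247 CPM. It did not overlap, with a log2 fold change of -0.93 (SE 0.13, adjusted p = 0.000184, edgeR), and without it 29 of 34 tested subunits fell. Its paralog Ndufa4l2, a hypoxia-induced gene outside the rule, had 43 counts in all libraries together and was below the filter, with 0.626 to 1.47 CPM in mild-hypo-OPCs and 0 to 3.05 CPM in standard OPCs.

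The 5 tested Ndufaf genes together had 90 to 572 counts per library, which limits what can be read from them. Ndufaf3 (ENSRNOG00000020068), which acts with Ndufaf4 on the ubiquinone-binding part, had 18.9, 21.4 and 26.4 CPM in mild-hypo-OPCs and 25.6, 32.7 and 45.3 CPM in standard OPCs. Its ranges met only at the edge, with a log2 fold change of -0.64 (SE 0.14, adjusted p = 0.00289, edgeR). Ndufaf4 (ENSRNOG00000007506) had 12.5, 15.2 and 17.6 CPM against 10.1, 15.1 and 19.3 CPM. Its mild-hypo-OPC range lay inside that of standard OPCs, with a log2 fold change of -0.01 (SE 0.15, adjusted p = 0.964, edgeR; 95% interval -0.33 to 0.30) and a call as higher on library size only, as for 61.7% of all genes. The difference between the changes of Ndufaf3 and Ndufaf4 was not tested.

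Ndufaf5 (ENSRNOG00000004784), which hydroxylates Ndufs7, had 7.37, 9.88 and 11.7 CPM in mild-hypo-OPCs and 11.5, 15.5 and 26.0 CPM in standard OPCs. The ranges met at the edge, and the log2 fold change was -0.73 (SE 0.19, adjusted p = 0.00768, edgeR), beside -0.72 for Ndufs7. Ndufaf7 (ENSRNOG00000005279), a mitochondrial methyltransferase, had 10.6, 11.8 and 14.1 CPM against 9.33, 12.5 and 24.4 CPM. The groups overlapped and 1 standard OPC library, replicate 6, stood far above the rest, with a log2 fold change of -0.19 (SE 0.18, adjusted p = 0.467, edgeR; 95% interval -0.57 to 0.18). Ndufaf2 (ENSRNOG00000055079), a paralog of Ndufa12 that holds its place during assembly, had 4.59, 4.89 and 6.15 CPM against 4.59, 9.26 and 15.0 CPM. Its log2 fold change was -0.76 (SE 0.25, adjusted p = 0.0336, edgeR), beside -0.62 for Ndufa12, and rested on few reads, 27 to 44 in each mild-hypo-OPC library against 11 to 27 in each standard one. Since it passed the filter only through the group where it was higher, its call is a description and no support for a fall of the assembly factors. The call was lost with limma-voom (adjusted p = 0.0557) and in 7 of 11 fits without 1 library, namely those lacking replicate 1, 2, 3 or 5 of mild-hypo-OPCs or 4, 5 or 6 of standard OPCs, with an adjusted p of up to 0.0794. After thinning to the smallest total, 6 assembly factors were tested, 0 were called lower by edgeR and 3 had an unadjusted p under 0.05.

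Subunits and assembly factors were also compared as sums within a library, where no scaling factor enters. There were 29.4 to 38.4 subunit reads per assembly factor read in mild-hypo-OPCs (median 30.6) and 33.7 to 42.9 in standard OPCs (median 36.9). The ranges overlapped in part and the ratio is given with no test. Accessory subunit reads per core subunit read were 3.10 to 3.68 in mild-hypo-OPCs, against 3.35 to 4.42 in standard OPCs, again with overlap. The summed level of the tested assembly factors was 59.7 to 70.7 CPM and 68.1 to 111 CPM, in the same order.

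Of the 43 members, 3 were below the filter of more than 10 CPM in at least 1 library. Per library, Ndufaf1 had 29 to 52 raw counts with mild hypoxia and 4 to 16 in room air, Ndufaf6 had 12 to 17 and 6 to 9, and Ndufs6 had at most 3 and 4. These counts are not corrected for depth, which was higher with mild hypoxia. After scaling, Ndufaf1 had 5.35 to 7.96 CPM with mild hypoxia and 3.68 to 8.45 CPM in room air. Ndufaf6 had 1.77 to 2.49 and 3.44 to 8.28 CPM in the same order, without overlap but on few reads. A second row with the symbol Ndufb2 held 0 counts. RefSeq now gives the name Ndufs6 to the gene listed here as Ndufs6l1 and marks the older Ndufs6 locus as a pseudogene. The Ndufs6l1 row, outside the rule, had 27.7 to 49.2 CPM in mild-hypo-OPCs and 39.1 to 90.0 CPM in standard OPCs, with overlap and a log2 fold change of -0.64 (SE 0.18, adjusted p = 0.0131, edgeR). Counted as the matrix-arm subunit Ndufs6, it brought the subunits called lower to 31.

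Pseudogene copies share sequence with many of these genes, and 19 members have 44 RefSeq pseudogenes named after them. Ndufs5-ps2 had 1972 counts in all, with 23.9 to 43.1 CPM in mild-hypo-OPCs and 40.7 to 123 CPM in standard OPCs. Its log2 fold change was -1.41 (SE 0.23, adjusted p = 0.000283, edgeR), beside -1.17 for Ndufs5, and how reads were divided between these rows makes both values uncertain. Ndufa10l1, a further near copy, had -0.15 (SE 0.13, adjusted p = 0.462, edgeR), beside -0.26 for Ndufa10.

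Most subunit genes are short, and short genes were called lower more often. Of the tested genes with a span in RefSeq (GRCr8), the quintile with the shortest spans, up to 8497 bp, had a median log2 fold change of -0.26 and 37.3% called lower, whereas the quintile with the longest spans had 0.06 and 5.56%. The shortest quintile held 22 of the 35 subunits, of which 20 fell with a median of -0.83. In the next quintile 6 of 7 subunits fell, with a median of -0.70, beside 21.1% lower and a median of -0.05 for all genes there. Of the 6 subunits with longer spans 4 fell, among them Ndufs4 with 110495 bp, while Ndufs1 and Ndufa10 did not pass. In the quintiles of these longer spans 11.4%, 6.14% and 5.56% of all genes were lower, from shorter to longer. With the trend on span removed (added after the values were seen), the subunit median was -0.61 and that of the assembly factors -0.25. Among the 6351 genes within the range of mean CPM of the subunits, 17.5% were lower.

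**Figure D4:**
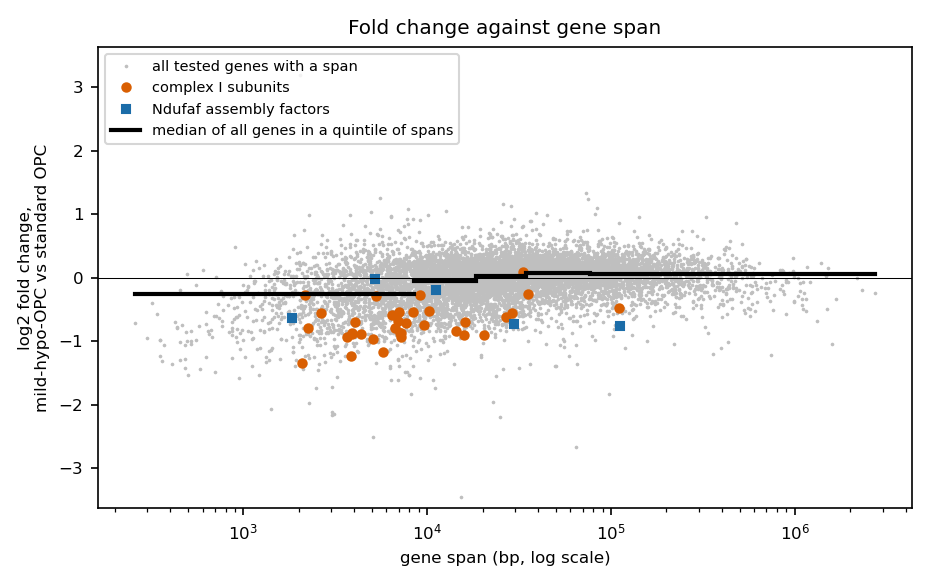
Log2 fold change (y axis, mild-hypo-OPC relative to standard OPC) against gene span in bp on a log scale (x axis) for all tested genes with a span (grey), complex I subunits (circles) and Ndufaf assembly factors (squares). Black lines are the medians of all genes in each quintile of spans, from -0.26 in the shortest to 0.06 in the longest, and most subunits lie below the line of their quintile.

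The rest of complex I did not move as 1 group. Of the 7 mitochondrially encoded subunits, 2 (28.6%) fell, Mt-nd3 (-0.60, SE 0.13, adjusted p = 0.00291, edgeR) and Mt-nd6 (-1.46, SE 0.40, adjusted p = 0.0127, edgeR), and 0 rose. Mt-nd6 was uneven in standard OPCs, with a mean of 102 CPM (SD 96.0) against 39.3 CPM (SD 13.2) in mild-hypo-OPCs. Its highest count was 660 in a standard OPC library and 539 in a mild-hypo-OPC library. The other 5 mitochondrially encoded subunits ranged from 0.07 for Mt-nd1 to 0.27 for Mt-nd5. The summed level of all 7 was 13436 to 21645 CPM in mild-hypo-OPCs and 13186 to 18766 CPM in standard OPCs. Of 9 tested assembly factors with other names, 1 (11.1%) fell, Tmem126b (-0.57, SE 0.15, adjusted p = 0.00916, edgeR), beside 17% of all genes, 0 rose and the median was -0.05. They include Acad9 and Ecsit, which act with Ndufaf1 in building the membrane arm and had 0.17 and 0.18, and Timmdc1 with -0.14. Of the 9, 6 had negative and 3 positive values. Dmac2 (-0.38, adjusted p = 0.125, edgeR) and Tmem186 (-0.35, adjusted p = 0.107, edgeR) were the lowest after Tmem126b. The nuclear subunits of the other complexes were lower as well. In complex III 8 of 8 fell (median -0.55), in complex IV 9 of 9 (median -0.82), in complex V, the ATP synthase, 13 of 15 (median -0.63), and in complex II 3 of 4 (median -0.32), with Sdha, the flavoprotein of complex II, at 0.13 (adjusted p = 0.237, edgeR). In these 4 complexes 0 subunits rose, and 0 were higher at an unadjusted p under 0.05.

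**Figure D5:**
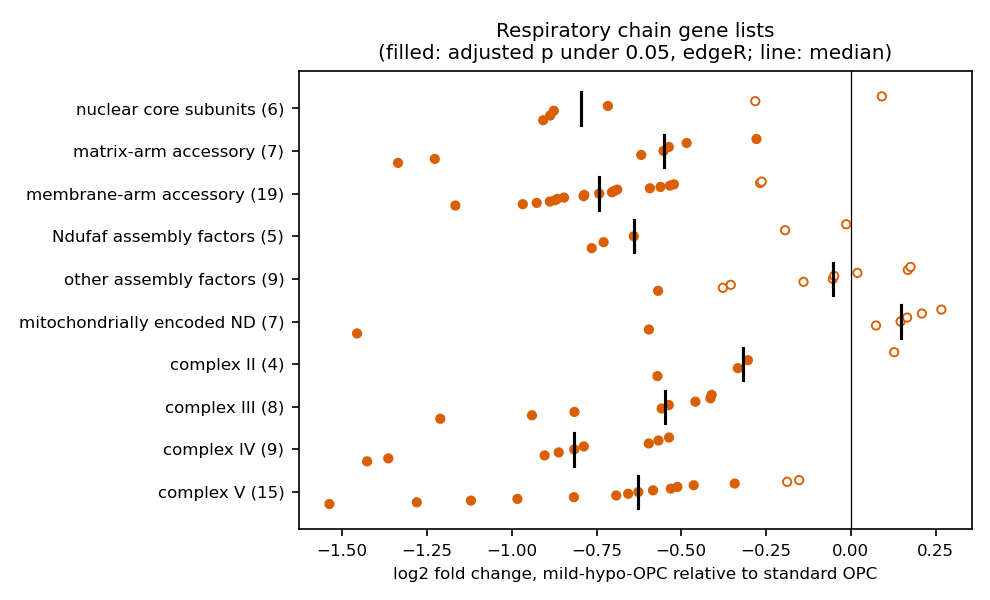
Log2 fold change (x axis, mild-hypo-OPC relative to standard OPC) of the tested genes in 10 lists of respiratory chain genes (y axis, number of genes in parentheses). Filled points have an adjusted p under 0.05 in edgeR and the vertical line is the list's median, from -0.82 in nuclear complex IV to 0.15 in the mitochondrially encoded subunits.

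Cell type markers were read in the same fit. The OPC markers Pdgfra, Cspg4, Sox10, Olig2 and Olig1 had log2 fold changes from 0.02 to 0.23, of which 0 of 5 passed in edgeR and 1 had an unadjusted p under 0.05, and their sum was 1768 to 1906 CPM in mild-hypo-OPCs and 1550 to 1822 CPM in standard OPCs. Of 5 oligodendrocyte markers 3 rose, with sums of 10461 to 11783 and 7078 to 10413 CPM. Of 4 tested astrocyte markers 2 rose, with sums of 578 to 694 and 498 to 581 CPM, of 4 tested microglial markers 2 rose, with 40.8 to 60.6 and 13.8 to 41.2 CPM, and of 3 tested neuronal markers 1 rose, with 249.9 to 277.9 and 159 to 216 CPM. The endothelial markers Pecam1, Cdh5 and Flt1 were at or near 0, with sums up to 0.355 and 1.11 CPM. The part of cell composition in the complex I result was not tested.

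Promoters are shown for the genes at both ends of the subunit range, Ndufa2 and Ndufa6 with the largest falls, and Ndufv2 and Ndufs1 as core neighbours with different values. Sequences are RefSeq, GRCr8, from 250 bases before to 50 after a gene start, whereas the counts were made on mRatBN7.2. Capitals mark matches, on either strand, to the letters GCGCATGC (the NRF1 motif), CCGGAAGT (GABPA) or AAGATGGC (YY1), of which none contains another. NRF1 and GABPA are known regulators of respiratory chain genes. All 4 lie on the minus strand, at chr18:28631835-28632134 for Ndufa2, chr7:115750268-115750567 for Ndufa6, chr9:113157471-113157770 for Ndufv2 and chr9:72073556-72073855 for Ndufs1.
Ndufa2: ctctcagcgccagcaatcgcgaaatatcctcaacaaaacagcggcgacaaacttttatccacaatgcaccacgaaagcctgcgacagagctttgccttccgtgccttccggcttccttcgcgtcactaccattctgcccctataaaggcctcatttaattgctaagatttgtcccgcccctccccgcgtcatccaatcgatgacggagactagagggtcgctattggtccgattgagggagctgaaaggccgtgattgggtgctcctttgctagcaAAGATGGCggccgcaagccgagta
Ndufa6: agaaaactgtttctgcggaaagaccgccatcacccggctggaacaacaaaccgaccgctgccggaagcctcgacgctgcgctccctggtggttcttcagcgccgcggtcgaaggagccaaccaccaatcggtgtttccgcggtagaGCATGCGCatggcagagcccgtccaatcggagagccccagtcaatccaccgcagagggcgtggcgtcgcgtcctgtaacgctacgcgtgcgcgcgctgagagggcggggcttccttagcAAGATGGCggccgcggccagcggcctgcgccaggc
Ndufv2: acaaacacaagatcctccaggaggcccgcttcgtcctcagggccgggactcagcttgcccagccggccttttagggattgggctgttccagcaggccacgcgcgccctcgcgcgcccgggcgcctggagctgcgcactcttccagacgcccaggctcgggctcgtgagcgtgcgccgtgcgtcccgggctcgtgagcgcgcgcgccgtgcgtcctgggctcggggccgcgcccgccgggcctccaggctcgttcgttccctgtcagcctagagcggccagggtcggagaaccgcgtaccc
Ndufs1: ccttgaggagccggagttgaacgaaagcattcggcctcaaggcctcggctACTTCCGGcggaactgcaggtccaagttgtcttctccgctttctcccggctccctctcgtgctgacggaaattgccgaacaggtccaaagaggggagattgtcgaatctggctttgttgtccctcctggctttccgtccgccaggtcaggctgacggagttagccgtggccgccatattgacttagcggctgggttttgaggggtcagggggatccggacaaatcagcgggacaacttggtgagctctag

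Ndufa2 held the YY1 letters, Ndufa6 those of NRF1 and YY1, Ndufs1 those of GABPA, and the window of Ndufv2 none of the 3. Over the 38 members with a promoter entry, the YY1 letters were in 7 (18.4%), beside 3.44% of all 27457 promoters and 6.6% of the 7076 promoters of tested genes. These 7 were Ndufa2, Ndufa3, Ndufa6, Ndufa9, Ndufb8, Ndufs4 and Ndufs7. All of them are subunits that fell, as did 30 of the 35 tested subunits, so no link of the letters with the fall can be read from this. The NRF1 letters were in 4 (10.5%), namely Ndufa6, Ndufa11, Ndufaf4 and Ndufaf5, beside 2.66% of all and 5.92% of tested promoters. The GABPA letters were in 3 (7.89%), beside 4.01% and 9.68%. The core letters ACGTG of the hypoxia-inducible factor motif were in 10 (26.3%), beside 19.7% and 26.9%. A match describes letters in a window and not binding, and no test was made of these shares.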

How the data were processed

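Bulk RNA-seq of 6 mild-hypo-OPC and 6 standard OPC libraries was analysed. Per the submitters' processing notes, the tools were Trimmomatic 0.36, FastQC 0.11.9, STAR 2.7.9a and RSEM 1.3.3 on mRatBN7.2, and per the labels libraries were strand-specific. The authors deposited raw whole-number counts for each Ensembl gene. How RSEM estimates were made whole is not given in the sources used here. Groups and replicate numbers came from the labels.

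Counts were tested in R 4.3.3 with edgeR 4.0.16 (TMM factors, glmQLFit and glmQLFTest, condition as the only term, Benjamini-Hochberg at 0.05) on 8938 genes that exceeded 10 CPM in 1 library or more, the filter of the study's methods. Standard errors are those implied by the quasi-likelihood F statistic. limma 3.58.1 (voom) and DESeq2 1.42.0 were alternatives, with other scalings, filters, depth corrections, a replicate block and each library left out. The totals, from 1356079 to 9022324 per library, bound the precision, and errors cover the deposited libraries only. Counts of libraries in a group differed by more than sampling noise (chi-square over its degrees of freedom, 3.22 to 19.7), so none was taken for a second sequencing of another. This cannot tell separate preparations of the same culture from separate cultures. RefSeq (GRCr8) spans were matched by symbol for 95.6% of the genes tested, and promoters for 38 members.

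The members and lists were chosen with earlier results of these data known. All members enter the counts and sums, and the single values of 1 are not reported here. Library values are given for the called subunits with the largest change (up to 6), the core subunits, the tested assembly factors, and Ndufa4, Ndufab1 and Ndufs5, and for repeated symbols the row with the highest total was used. Figures were drawn with matplotlib 3.10.9.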

Additional observations from a re-analysis of the deposited data

Results flagged for a closer look

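In 4 of 84 groups of 6 libraries examined, 1 library stood apart by Dixon's criterion (a gap of more than 0.625 of the group's range). Chance gives such a gap in about 1 of 20 groups. Ndufb10 had 105 CPM in mild-hypo-OPC replicate 6 and 77.9 to 81.9 CPM in the others of its group, and its change passed the test without that library. Ndufa10 had 68.0 CPM in mild-hypo-OPC replicate 4, beside 54.2 to 58.3 CPM. Ndufa6 had 23.9 CPM in mild-hypo-OPC replicate 1, the library with the highest total, beside 32.9 to 38.2 CPM. Ndufaf7 had 24.4 CPM in standard OPC replicate 6, beside 9.33 to 13.3 CPM.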

How the results depend on the processing

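Of the 30 subunits called lower, 28 kept the call in each fit that left out 1 library. In these fits 28 to 33 subunits were called lower, with medians from -0.80 to -0.62, beside 13.1% to 18.7% of all genes lower. DESeq2, limma-voom and filterByExpr each called 30 lower, and upper-quartile factors and no filter 29. With the replicate block 31 subunits and 3 assembly factors were called lower, with Ndufb10 passing (adjusted p = 0.0347, edgeR) and Ndufv3 not (adjusted p = 0.0570, edgeR). Correlations of deviations between libraries of the same number were -0.29 to 0.31, and replicate 1 alone matched its own number best. With the block, the SE of Ndufa6 went from 0.18 to 0.12 and that of Ndufaf4 from 0.15 to 0.17. Correlations over all genes cannot settle whether the numbers mark shared cultures, and the labels do not say so. Over all genes the block called 1471 lower and 572 higher.

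On library size only, 15 subunits were called lower and 1 higher (median -0.28), and 0 assembly factors lower and 1 higher (median -0.21). The median of all genes was then 0.43. The sign turned for 6 of 39 genes, with 0.17 for Ndufa10, 0.41 for Ndufaf4, 0.24 for Ndufaf7, 0.17 for Ndufb10, 0.16 for Ndufv1 and 0.16 for Ndufv3. With the log2 total as a covariate, 0 subunits (median 0.015) and 0 assembly factors (median -0.051) were called lower. It turned for 19 of them, with 0.12 for Ndufa10, 0.073 for Ndufa11, 0.015 for Ndufa13, 0.010 for Ndufa6, 0.074 for Ndufa8, 0.099 for Ndufa9, 0.052 for Ndufab1, 0.28 for Ndufaf7, 0.24 for Ndufb11, 0.23 for Ndufb2, 0.057 for Ndufb3, 0.20 for Ndufb5, 0.13 for Ndufb7, 0.010 for Ndufb9, 0.40 for Ndufc2, 0.029 for Ndufs3, 0.10 for Ndufs4, 0.11 for Ndufs8 and 0.33 for Ndufv1. The total counts of the groups do not overlap, so the covariate and the condition cannot be told apart.

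After thinning, 6 assembly factors passed the filter, beside 5 in the main fit, and 0 were called lower. Their median of -0.34 therefore covers another set of genes than the main -0.64. Ndufaf2, Ndufaf3 and Ndufaf5 had -1.13, -0.72 and -1.15, beside -0.76, -0.64 and -0.73 in the main fit. The sign turned with 0.12 for Ndufaf4, 0.045 for Ndufaf7 and -0.087 for Ndufs1. With the span trend removed, chosen after the data were seen, the assembly factor median was -0.25. Ndufaf4 was 0.055 with upper-quartile factors, 0.021 without a filter and -0.086 to 0.060 without single libraries, and Ndufaf7 was -0.27 to 0.0043 there. The causes of these changes were not tested. Over all genes, 1520 were called lower and 626 higher, beside 1255 and 1136 with upper-quartile factors and 405 and 5515 on library size only. A trend on protein length was not run. Depth limits the assembly factors most, with 90 to 178 counts together per standard OPC library.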
